A study of Mus musculus with 15 samples.

Results

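Messenger RNA of 10 genes that write, remove or maintain DNA methylation or form Polycomb repressive complex 2 (PRC2) was followed in cultured mouse CD4 T cells of the Tfh (T follicular helper), Th17 and Th1 conditions. The genes were listed by symbol, and each symbol matched 1 row of the 27179 genes in the count table through its Entrez ID. Dnmt1, Dnmt3a and Dnmt3b encode DNA methyltransferases, and Uhrf1 encodes the factor that brings Dnmt1 to newly replicated DNA. Tet1, Tet2 and Tet3 encode dioxygenases that oxidise methylated cytosine. Ezh1 and Ezh2 encode the alternative catalytic subunits of PRC2, and Eed encodes its core subunit that binds the methylated histone tail. All 10 passed the filter on low counts that left 12591 genes for testing.

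DNA methylation is set de novo by Dnmt3a and Dnmt3b and is copied after each round of replication by Dnmt1 with Uhrf1, while the Tet enzymes start its removal. PRC2 methylates histone H3 at lysine 27, a mark of silenced genes, and the form with Ezh2 is typical of dividing cells while the form with Ezh1 is also found in resting cells. In T helper cells these enzymes are known for keeping lineage and cytokine genes, such as the interferon gamma locus, silent or open.

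There were 15 libraries, 5 in each condition. The Tfh cells were sorted as CXCR5+ and IL-17A-negative and the Th1 cells as IFNg+, per the design text, and neither the sorting of Th17 cells nor the polarising cytokines are given in the sources used here. All 3 groups came from naive CD4 cells of the genotype B6.Cg-Ifngtm3.1Lky-Il17atm1.1Lky, so the altered Ifng and Il17a alleles were shared by every library. The cells were held for 3.5 days in cRPMI medium, stimulated through plate-bound antibodies to CD3 and CD28, and sorted into Trizol LS, and 100 ng of RNA went into each library. The labels give no age of the mice and do not tie the 5 libraries of a condition to separate mice or cultures, so the p-values hold for differences among these samples, whose spread may be technical.

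Libraries held 4.87 to 25.2 M gene counts (M is a 1 with 6 zeros; median 10.5). The 4 Th1 markers summed to 22.2 CPM in Tfh cells, 64.5 in Th17 cells and 2691 in Th1 cells (CPM, counts per M of the TMM-scaled library size). The 6 markers of T helper cells, Cd4 and Cd3e among them, summed to 6453, 5048 and 3329 CPM in that order of conditions. Cd4 itself did not fall, with 552, 551 and 593 CPM. Cd3e (1292, 855 and 559) and Trac (2093, 1470 and 763) did. The 4 Th17 markers summed to 4827 CPM in Tfh cells, 11900 in Th17 cells and 55.8 in Th1 cells, and the 4 Tfh markers to 1421, 1132 and 158.8 CPM in that order of conditions. The Tfh and Th17 libraries thus shared markers of both names. Markers of B cells summed to at most 2.59 CPM in any library, markers of myeloid cells to at most 3.09 CPM, and markers of erythroid cells were at 0 in all 15. Markers of CD8 T cells summed on average to 7.34 CPM in Tfh cells, 10.5 in Th17 cells and 16.97 in Th1 cells. Those of gamma-delta T cells summed to 23.5, 15.9 and 34.9, and those of NK cells to 0.69, 0.53 and 4.5, in that order of conditions. Of the gamma-delta markers, Trdc (15.1, 6.46 and 31.9 CPM) and Sox13 (0, 0.06 and 1.97) were highest in Th1 cells. Tcrg-C1 (8.43, 9.41 and 1.01 CPM) was lowest there. Among the NK markers, Ncr1 and Klra8 were 0 throughout, and Eomes alone made up the Th1 value. Eomes averaged 0.26, 0.12 and 4.5 CPM and Klrb1c 0.42, 0.41 and 0, so these 2 markers ran opposite ways. The part of such cells in the results was not tested.

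Tfh cells had less Dnmt1 and Uhrf1 than either other condition and more Ezh1, and Th1 cells had the most Tet1 and Tet2. In Tfh against Th17 cells 3 of the 10 genes were called, that is, had an adjusted p under 0.05 in edgeR's quasi-likelihood test, against 16.8% of all genes tested: Ezh1 was higher, where 6.8% of all genes were, and Dnmt1 and Uhrf1 were lower, where 9.98% were. In Tfh against Th1 cells 6 of 10 were called, against 49.3% of all genes. Ezh1 was higher there (24.1% of all genes) and Dnmt1, Uhrf1, Tet1, Tet2 and Eed were lower (25.2%). In Th17 against Th1 cells 6 of 10 were called, against 36.9% of all genes. Ezh1 was higher (19% of all genes) and Dnmt3a, Tet1, Tet2, Tet3 and Eed were lower (17.8%). Libraries did not overlap for 3 of the 10 genes in Tfh against Th17 cells (14.5% of all genes), for 6 in Tfh against Th1 cells (34.3%) and for 4 in Th17 against Th1 cells (28.8%). The 3 comparisons share libraries, so their counts are not independent. Their median log2 fold changes over the 10 genes were -0.02, -0.44 and -0.23, against -0.01, -0.01 and 0.03 over all genes tested.

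**Figure D1:**
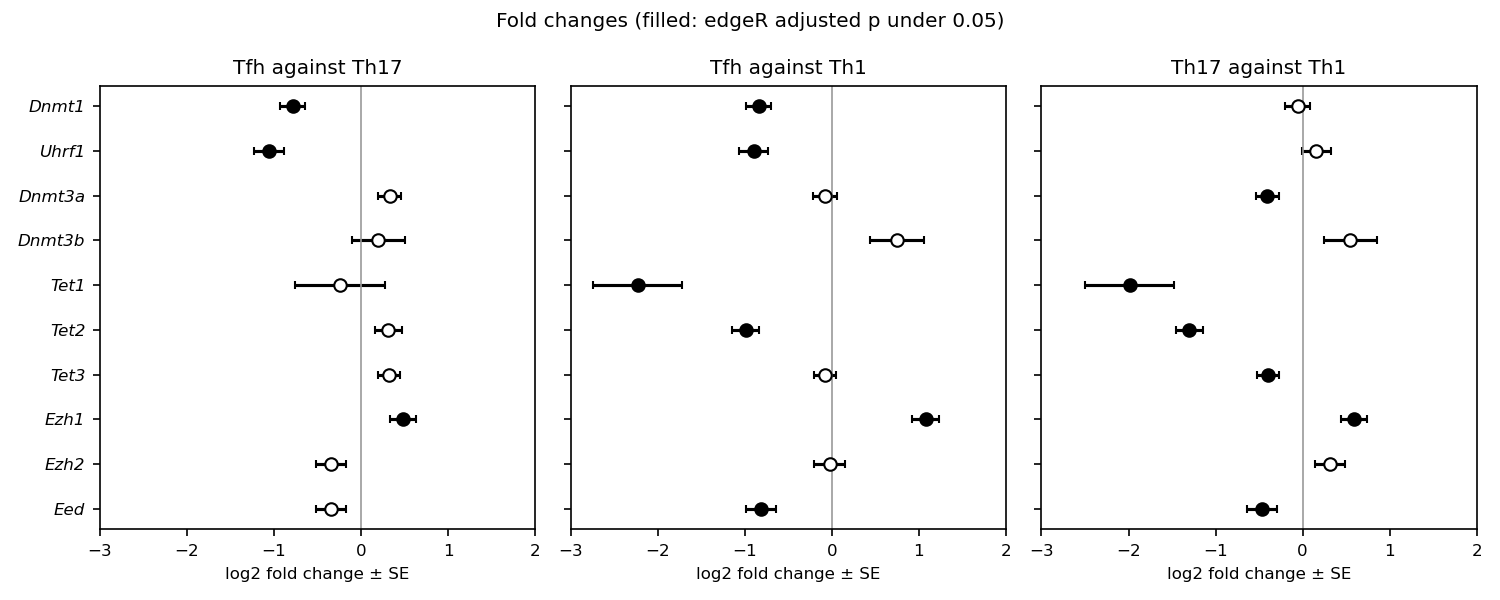
Fitted log2 fold changes of the 10 genes (x axis, ± SE) in Tfh against Th17, Tfh against Th1 and Th17 against Th1 cells, first-named condition over the other; filled points had an edgeR adjusted p under 0.05. Ezh1 is filled and right of 0 in all 3 panels, Dnmt1 and Uhrf1 are filled and left of 0 in both Tfh panels, and Tet1 and Tet2 are filled and left of 0 in both panels against Th1.

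Per kilobase of merged exons, the mean level over all 15 libraries was 61.8 CPM for Ezh2, 59.8 for Eed, 36.0 for Dnmt1, 19.05 for Uhrf1, 11.6 for Ezh1, 8.24 for Tet3, 6.52 for Tet2, 4.91 for Dnmt3a, 3.21 for Dnmt3b and 0.39 for Tet1. With the conditions pooled, the range over libraries of each gene overlapped that of its neighbour in this order. Compared within libraries, Dnmt1 was above Uhrf1 in all 15, as in Tfh replicate 1 (19.88 against 11.02 CPM per kilobase). The order of other pairs turned between conditions. Eed averaged 44.6 CPM per kilobase in Tfh, 56.6 in Th17 and 78.3 in Th1 cells, where Ezh2 averaged 56.4, 71.5 and 57.4 in that order of conditions. Ezh1 (15.9) stood above Uhrf1 (11.6) in Tfh cells, and below Tet2 (10.24) and Tet3 (9.12) in Th1 cells at 7.52. Relative to its size, the step to the next gene was largest for Tet1, whose highest library reached 1.17 CPM per kilobase while the lowest of Dnmt3b was 0.65.

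Dnmt1 (Entrez gene 13433, chr9:20907206-20959888, GRCm38) copies CpG methylation onto the new strand after replication. Its level in replicates 1 to 5 was 125, 141, 144, 166 and 175 CPM in Tfh cells, 287, 199, 247, 293 and 272 CPM in Th17 cells, and 227, 225, 287, 314 and 298 CPM in Th1 cells. Every Tfh library was below every library of the other conditions. Dnmt1 averaged 151 ± 20.2 CPM in Tfh cells, 259 ± 38.0 in Th17 cells and 270.0 ± 41.5 in Th1 cells (SD, n = 5 each). It fell by 0.78 ± 0.14 on the log2 scale (SE) in Tfh against Th17 cells, a 1.72-fold lower level (edgeR adjusted p = 0.000718), and by 0.84 ± 0.14 in Tfh against Th1 cells (edgeR adjusted p = 6.84e-05). Th17 and Th1 cells were not shown to differ (-0.06 ± 0.14, edgeR adjusted p = 0.784).

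Uhrf1 (18140, chr17:56303337-56323486) recognises hemimethylated CpG and recruits Dnmt1. Its levels were 40.4, 38.6, 30.9, 54.6 and 47.4 CPM in Tfh cells, 91.0, 67.6, 88.7, 96.5 and 97.0 CPM in Th17 cells, and 66.4, 61.5, 81.2, 97.4 and 88.6 CPM in Th1 cells. The Tfh libraries again lay below all others, and Th17 replicate 2 was lower than the other 4 of its condition. The means were 42.4 ± 9.04 CPM in Tfh cells, 88.2 ± 12.0 in Th17 cells and 79.0 ± 15.01 in Th1 cells. Uhrf1 fell by 1.06 ± 0.17 on the log2 scale in Tfh against Th17 cells, 2.08-fold lower (edgeR adjusted p = 0.0003), and by 0.90 ± 0.17 in Tfh against Th1 cells (edgeR adjusted p = 0.00026). Th17 against Th1 cells gave 0.16 ± 0.17 (edgeR adjusted p = 0.506). Across the 15 libraries the log2 levels of Dnmt1 and Uhrf1 had a Pearson r of 0.95, as a description, since the libraries fall into 3 conditions. In bulk libraries, fewer cells with a transcript and less transcript per cell cannot be told apart.

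**Figure D2:**
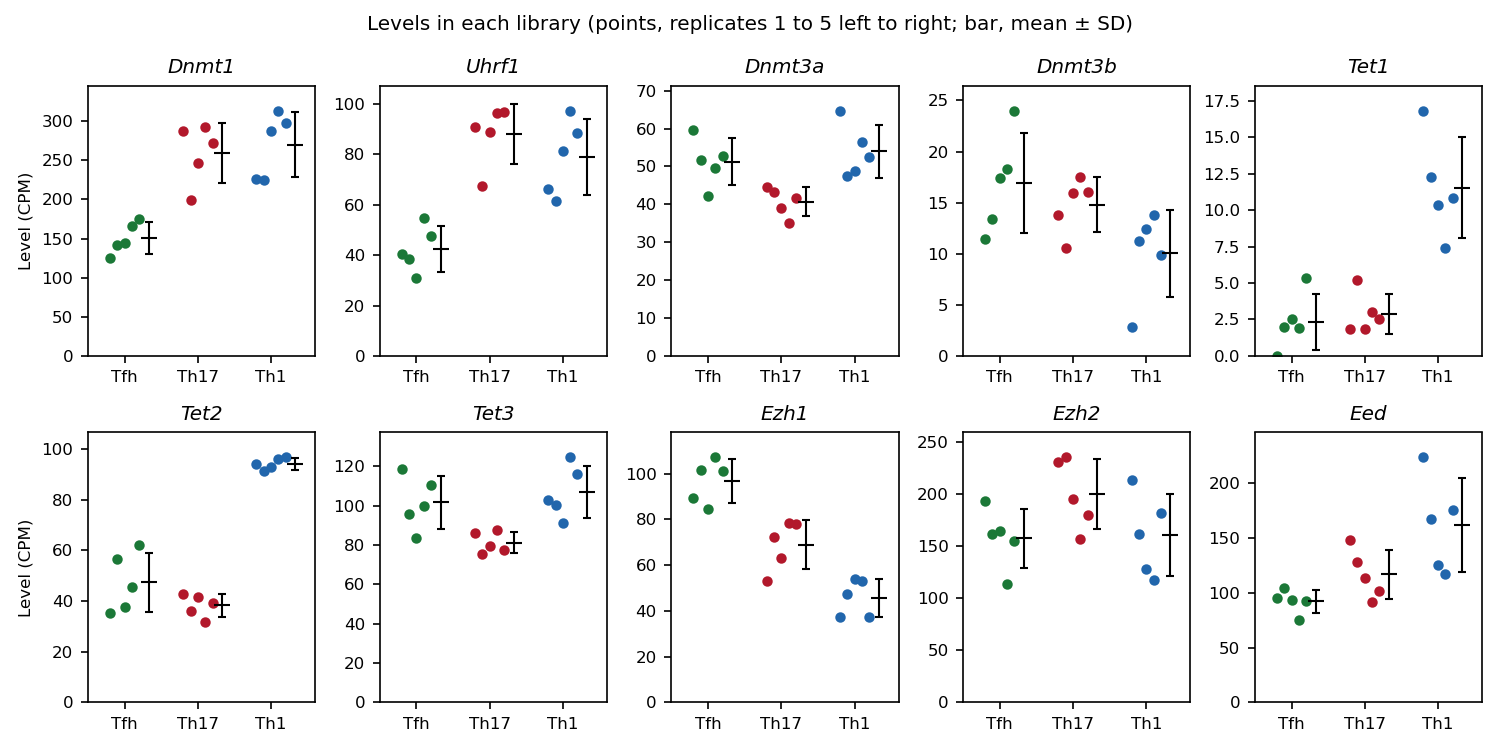
Level of each gene (y axis, CPM) in each library, with replicates 1 to 5 drawn left to right as points and the mean ± SD of 5 libraries as a bar, for Tfh, Th17 and Th1 cells. The Tfh points of Dnmt1 (125 to 175 CPM) and Uhrf1 (30.9 to 54.6 CPM) lie below all others, and the Th1 points of Tet2 lie within 91.2 to 96.8 CPM.

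Both genes are transcribed mainly as cells enter S phase, so a list of 33 replication genes, among them Mcm2 to Mcm7, Pcna and Mki67, was read beside them. In Tfh against Th17 cells 27 of the 33 were called lower and 0 higher, with a median log2 fold change of -0.75. Of all genes tested, 9.98% were called lower there and 6.8% higher. In Tfh against Th1 cells 17 were called lower and 3 higher (median -0.49), against 25.2% and 24.1% of all genes. In Th17 against Th1 cells 16 were called higher and 0 lower (median 0.46), against 19% and 17.8% of all genes. The largest differences by the naming rule were those of Ccne2, cyclin E2 (-1.41 ± 0.41 on the log2 scale), and Pclaf, a PCNA partner (-1.30 ± 0.14), in Tfh against Th17 cells. In Tfh against Th1 cells Mcm10 (-1.02 ± 0.16) and Cdc45 (-1.004 ± 0.14), both needed to activate the replicative helicase, were lowest, while the helicase subunits Mcm3 (0.58 ± 0.14) and Mcm6 (0.56 ± 0.10) were higher. Mcm3 (1.097 ± 0.14) and Mcm2 (1.07 ± 0.19) led Th17 against Th1 cells. The list summed to 4351 ± 340 CPM in Tfh cells, 7692 ± 501 in Th17 cells and 5586 ± 529 in Th1 cells (SD, n = 5 each), with no overlap between conditions.

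The ratio of each gene to this summed list was tested within libraries by exact two-sided permutation tests of 5 against 5, whose smallest possible p is 0.00794, with Benjamini-Hochberg adjustment over 36 ratio tests. The Dnmt1 ratio did not differ detectably between Tfh and Th17 cells (0.04 on the log2 scale, adjusted exact p = 0.79), nor did that of Uhrf1 (-0.25, adjusted exact p = 0.227). With Mki67, Top2a and Pclaf taken off the list, the Uhrf1 ratio was -0.38 (adjusted exact p = 0.039) and that of Dnmt1 changed sign to -0.09 (adjusted exact p = 0.543). Against Th1 cells the Tfh ratios of Dnmt1 (-0.48, adjusted exact p = 0.0286) and Uhrf1 (-0.54, adjusted exact p = 0.0408) were lower. These calls against Th1 were lost when single libraries were left out: that of Dnmt1 without Tfh replicate 5 (adjusted exact p = 0.0504), that of Uhrf1 without Tfh replicates 1, 2, 3 or 5 or Th1 replicates 3, 4 or 5 (0.0519 to 0.0714). The Th17 ratio of Dnmt1 against Th1 was -0.52 (adjusted exact p = 0.0286), with 0.0519 to 0.0571 when Th17 replicates 1, 2, 3 or 5 or Th1 replicates 3 or 5 were left out, and that of Uhrf1 was -0.30 (0.163; -0.36 and 0.0497 with the shortened list). In Tfh against Th17 cells the ratios of Dnmt3a, Dnmt3b, Tet2, Tet3 and Ezh1 were higher by 0.99 to 1.32, with no overlap of libraries (adjusted exact p = 0.019 for each), and that of Eed by 0.49 (0.0286; 0.0649 without Tfh replicate 2 and 0.0714 with the shortened list). The summed list itself was lower by 0.82 on the log2 scale in Tfh than in Th17 cells, and of these genes only Ezh1 was called on its own level there.

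**Figure D3:**
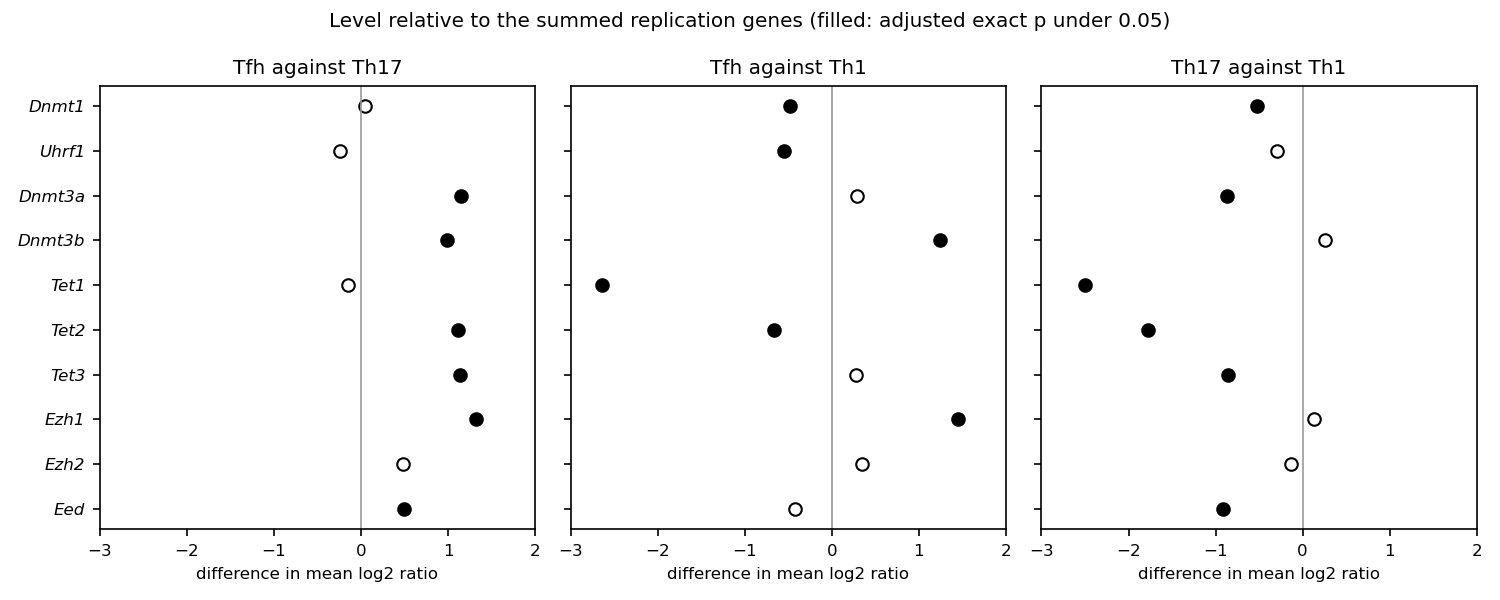
Difference in the mean log2 ratio of each gene to the summed replication list (x axis), first-named condition minus the other; filled points had an adjusted exact permutation p under 0.05. Dnmt1 and Uhrf1 lie near 0 and open in Tfh against Th17 cells (0.04 and -0.25), and Ezh1 lies at 1.32 there.

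Promoters of Dnmt1 and Uhrf1 are shown because these genes moved together, and that of Ezh1 because it moved the other way. RefSeq gave 15 promoter windows for the 10 genes (GRCm38.p6; 250 bases before to 50 after a start), which were searched on both strands for GCGGGAA and GCGCGAA, core words of E2F binding sites. The 2 words share no overlap within the windows shown. Windows of 2 of the 10 genes held a word, 1 of the 3 windows of Dnmt1 and both windows of Uhrf1. A word was in 6.0% of the 32851 RefSeq windows of this length, in 11.04% of those of genes tested and in 56.7% of the 30 windows of the replication list. The windows below are written 5′ to 3′ on the strand of the gene, with a word or its reverse complement in capitals, for Dnmt1 chr9:20952574-20952873 (minus strand), Uhrf1 chr17:56304063-56304362 (plus strand) and Ezh1 chr11:101226414-101226713 (minus strand). The Dnmt1 words begin 219 and 158 bases before the start and the Uhrf1 word 184 bases before it, and other starts of the same gene lie close by, so a window can hold transcribed bases of another start.
Dnmt1: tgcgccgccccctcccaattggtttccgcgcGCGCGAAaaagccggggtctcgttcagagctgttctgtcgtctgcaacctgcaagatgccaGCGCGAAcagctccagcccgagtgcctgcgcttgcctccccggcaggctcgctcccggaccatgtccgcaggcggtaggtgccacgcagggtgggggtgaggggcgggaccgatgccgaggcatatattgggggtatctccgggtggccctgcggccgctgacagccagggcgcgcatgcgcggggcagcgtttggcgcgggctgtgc
Uhrf1: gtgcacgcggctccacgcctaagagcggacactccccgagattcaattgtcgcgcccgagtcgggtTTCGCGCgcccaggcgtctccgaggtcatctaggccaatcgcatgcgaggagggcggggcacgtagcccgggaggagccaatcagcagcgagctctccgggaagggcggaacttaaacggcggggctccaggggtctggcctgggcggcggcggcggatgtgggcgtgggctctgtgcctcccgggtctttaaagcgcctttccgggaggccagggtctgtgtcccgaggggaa
Ezh1: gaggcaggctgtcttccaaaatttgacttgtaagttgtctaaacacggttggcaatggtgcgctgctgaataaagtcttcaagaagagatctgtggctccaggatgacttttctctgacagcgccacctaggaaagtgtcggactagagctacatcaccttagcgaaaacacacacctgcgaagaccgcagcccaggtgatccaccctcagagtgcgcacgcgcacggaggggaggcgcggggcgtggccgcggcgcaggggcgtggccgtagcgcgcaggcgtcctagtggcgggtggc
These windows held 33, 33 and 23 CpG, the bases that the Dnmt and Tet enzymes act on, against a median of 23 over the 15 windows, of 20 over windows of genes tested, of 21 over those of the replication list and of 7 over all windows. Those shown were the most CpG-rich windows of Dnmt1 and Uhrf1. The other Dnmt1 windows held 2 and 12 CpG and no word, and the other Uhrf1 window 12 CpG and 1 word. The Tet2 window held 57, and 99.9% of all windows held no more. A match of letters is a description and shows no binding.

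Dnmt3a (13435, chr12:3801559-3914443) sets methylation de novo and is the main such enzyme of mature T cells. Its levels were 59.5, 51.7, 42.3, 49.6 and 52.9 CPM in Tfh cells, 44.6, 43.3, 39.1, 35.2 and 41.6 CPM in Th17 cells, and 64.8, 47.4, 48.9, 56.4 and 52.5 CPM in Th1 cells. All Th17 libraries were below all Th1 libraries. Dnmt3a fell by 0.41 ± 0.14 on the log2 scale in Th17 against Th1 cells (40.7 ± 3.75 against 54.0 ± 6.96 CPM, SD, n = 5 each; edgeR adjusted p = 0.0241), a call that was lost without Th1 replicate 1 (-0.33, adjusted p = 0.0614) and with a correction for GC content (-0.44, adjusted p = 0.058), where the difference was no smaller. The differences in Tfh against Th17 cells (0.33 ± 0.14, edgeR adjusted p = 0.109) and in Tfh against Th1 cells (-0.08 ± 0.13, 0.667) did not pass.

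Dnmt3b (13436, chr2:153649411-153687730), the other de novo enzyme and best known in embryonic cells, averaged 16.9 ± 4.88 CPM in Tfh cells, 14.8 ± 2.696 in Th17 cells and 10.02 ± 4.28 in Th1 cells, and no comparison passed. The nearest was Tfh against Th1 cells (0.75 ± 0.31 on the log2 scale, edgeR adjusted p = 0.0526), which passed in 8 of 26 settings run. Its levels there were 11.4, 13.4, 17.4, 18.3 and 24.0 CPM in Tfh cells, against 2.80, 11.2, 12.5, 13.8 and 9.88 CPM in Th1 cells. Th1 replicate 1 was far below the other libraries.

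The Dnmt3a to Dnmt3b count ratio averaged 1.63 ± 0.51 in Tfh, 1.48 ± 0.39 in Th17 and 2.595 ± 1.08 in Th1 cells on the log2 scale (SD, n = 5 each). It was lower in Th17 than in Th1 cells by 1.12 (exact permutation p = 0.0159, adjusted 0.0286). Th1 replicate 1 stood at 4.50, where the other 4 Th1 libraries lay between 1.97 and 2.40, and without it the difference was -0.65 (adjusted exact p = 0.0408). The call was lost without Th17 replicates 1, 3, 4 or 5 (0.0714 to 0.0879). It was also lost with each library's fitted trend on GC content subtracted (-1.12, adjusted exact p = 0.0519). Tfh cells differed from Th1 cells by -0.96 (adjusted exact p = 0.0769; -0.49 without Th1 replicate 1) and from Th17 cells by 0.16 (0.641). Per length, Dnmt3a made up 57.4 ± 8.52% of the pair in Tfh, 54.8 ± 6.69% in Th17 and 70.6 ± 11.7% in Th1 cells.

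Tet2 (214133, chr3:133463677-133545136) had the lowest p of the 10 genes in the test over all 3 conditions (edgeR adjusted p = 2e-06). It is known in mouse T cells for promoting expression of lineage cytokines. Its levels were 35.4, 56.6, 37.8, 45.5 and 62.0 CPM in Tfh cells, 42.7, 35.9, 41.5, 31.9 and 39.3 CPM in Th17 cells, and 93.9, 91.2, 92.9, 96.2 and 96.8 CPM in Th1 cells. All Th1 libraries were above all others, and the Th1 libraries lay closest together. Tet2 fell by 0.99 ± 0.16 on the log2 scale in Tfh against Th1 cells, 1.98-fold lower (47.5 ± 11.6 against 94.2 ± 2.33 CPM; edgeR adjusted p = 3.33e-05), and by 1.30 ± 0.16 in Th17 against Th1 cells, 2.46-fold lower (edgeR adjusted p = 2.26e-06). Tfh against Th17 cells gave 0.31 ± 0.16 (edgeR adjusted p = 0.188).

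Tet1 (52463, chr10:62804570-62887469), the Tet enzyme with a large role in embryonic stem cells, was the least abundant of the 10 per length, as a mean over all libraries. Its levels were 0, 1.98, 2.53, 1.89 and 5.34 CPM in Tfh cells, 1.87, 5.19, 1.87, 3.02 and 2.53 CPM in Th17 cells, and 16.8, 12.3, 10.3, 7.38 and 10.8 CPM in Th1 cells. The Th1 libraries were above all others, and Tfh replicate 1, the shallowest library, had a count of 0, where 3 counts, the limit that a count of 0 allows, equal 0.58 CPM. Tet1 fell by 2.23 ± 0.52 on the log2 scale in Tfh against Th1 cells (2.35 ± 1.93 against 11.5 ± 3.45 CPM; edgeR adjusted p = 0.00149) and by 1.99 ± 0.51 in Th17 against Th1 cells (2.89 ± 1.37 against 11.5 ± 3.45 CPM; edgeR adjusted p = 0.00451). The limit covers counting error only.

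Tet3 (194388, chr6:83362373-83457208) was the most abundant Tet gene per length in Tfh (8.66 CPM per kilobase) and Th17 cells (6.93), but not in Th1 cells (9.12, with Tet2 at 10.24). Its levels were 119, 95.9, 83.4, 100.0 and 111 CPM in Tfh cells, 86.2, 75.4, 79.8, 87.6 and 77.6 CPM in Th17 cells, and 103, 100.3, 91.3, 125 and 116 CPM in Th1 cells. The Th17 libraries were below all Th1 libraries and overlapped the Tfh ones. Tet3 fell by 0.40 ± 0.13 on the log2 scale in Th17 against Th1 cells (edgeR adjusted p = 0.0182; -0.44 with an adjusted p of 0.0593 under a correction for GC content). It gave 0.32 ± 0.13 in Tfh against Th17 cells (edgeR adjusted p = 0.0912) and -0.08 ± 0.13 in Tfh against Th1 cells (0.65). Of the summed Tet level per length, Tet2 made up 36.7% in Tfh, 36.8% in Th17 and 50.9% in Th1 cells, and Tet3 62.2%, 61.4% and 45.1% in that order of conditions, as means of 5 libraries.

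Ezh1 (14055, chr11:101191115-101226463), whose promoter is shown above, was the only one of the 10 genes called in all 3 comparisons. Its levels were 89.3, 102, 84.3, 107 and 101 CPM in Tfh cells, 53.2, 72.2, 63.1, 78.3 and 78.1 CPM in Th17 cells, and 37.1, 47.5, 53.9, 53.1 and 37.1 CPM in Th1 cells. The Tfh libraries were above all others, and Th17 and Th1 cells overlapped only in that Th17 replicate 1 lay below Th1 replicate 3. Ezh1 rose by 1.08 ± 0.15 on the log2 scale in Tfh against Th1 cells, 2.11-fold (96.7 ± 9.49 against 45.7 ± 8.24 CPM; edgeR adjusted p = 9.51e-06). It rose by 0.59 ± 0.15 in Th17 against Th1 cells (69.0 ± 10.8 against 45.7 ± 8.24 CPM; edgeR adjusted p = 0.0044). In Tfh against Th17 cells it rose by 0.49 ± 0.15 (edgeR adjusted p = 0.0309), a call that held in 20 of 26 settings and was lost without a filter on low counts (0.051) and without Th17 replicate 1 (0.0912) or 3 (0.0731) or Tfh replicate 2 (0.0529), 4 (0.0748) or 5 (0.0567).

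Ezh2 (14056, chr6:47530274-47595270), the main methyltransferase of PRC2 in activated T cells, was called in no comparison in the test without corrections. Its levels were 194, 162, 165, 114 and 156 CPM in Tfh cells, 231, 236, 196, 158 and 181 CPM in Th17 cells, and 214, 162, 128, 117 and 183 CPM in Th1 cells. The conditions overlapped, and replicate 4 was the lowest of each. Tfh against Th17 cells gave -0.34 ± 0.18 on the log2 scale (edgeR adjusted p = 0.206), Tfh against Th1 cells -0.03 ± 0.18 (0.916), a sign that changed with scaling by library size only, and Th17 against Th1 cells 0.32 ± 0.18 (0.174). With a correction for GC content it was called lower in Tfh than in Th17 cells (-0.28, edgeR adjusted p = 0.0435) and higher in Th17 than in Th1 cells (0.28, 0.0255), and without Th1 replicate 1 the second was also called (0.44, 0.0488).

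Eed (13626, chr7:89954654-89980976) stabilises PRC2 and is needed for its activity. Its levels were 95.1, 105, 93.7, 75.1 and 92.7 CPM in Tfh cells, 149, 128, 114, 92.0 and 102 CPM in Th17 cells, and 224, 167, 126, 117 and 175 CPM in Th1 cells. The Tfh libraries were below all Th1 libraries, and replicate 4 was the lowest in each condition. Eed fell by 0.81 ± 0.18 on the log2 scale in Tfh against Th1 cells, 1.76-fold lower (92.2 ± 10.7 against 162 ± 43.0 CPM; edgeR adjusted p = 0.000848). In Th17 against Th1 cells it fell by 0.47 ± 0.17 (edgeR adjusted p = 0.042), which held in 18 of 26 settings. That call was lost with only the Th17 and Th1 libraries in the fit (0.0742) and without Th1 replicate 1 (0.125), 2 (0.0766) or 5 (0.0601) or Th17 replicate 3 (0.0569), 4 (0.0697) or 5 (0.0705). The change in Tfh against Th17 cells was -0.34 ± 0.18 (0.205; -0.28 and 0.0248 with a correction for GC content).

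The Ezh1 to Ezh2 count ratio does not depend on library scaling. On the log2 scale it was -1.12, -0.68, -0.96, -0.09 and -0.62 in Tfh replicates 1 to 5, -2.12, -1.71, -1.63, -1.01 and -1.21 in Th17 replicates, and -2.52, -1.77, -1.25, -1.15 and -2.30 in Th1 replicates. All Tfh libraries were above all Th1 libraries, and replicate 4 was the highest of each condition. The ratio was higher by 1.104 in Tfh than in Th1 cells, 2.15-fold (exact permutation p = 0.00794, the smallest possible; adjusted 0.019), and by 0.84 in Tfh than in Th17 cells, 1.79-fold (0.0159, adjusted 0.0286). Th17 and Th1 cells differed by 0.26 (0.452, adjusted 0.525). Per length, Ezh1 made up 22.5 ± 4.89% of the pair in Tfh, 14.0 ± 3.60% in Th17 and 12.3 ± 4.41% in Th1 cells (SD, n = 5 each).

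Within a condition, library levels also moved with the GC content of the gene. The Spearman correlation of a library's deviation from its condition mean with GC content, across genes, which are not independent, was 0.57 in Tfh, 0.70 in Th17 and 0.71 in Th1 replicate 4, the libraries with the highest Ezh1 to Ezh2 ratio. With each library's fitted trend on GC content subtracted from its log2 ratio, a step chosen after the data were seen, the differences were 0.84 in Tfh against Th17 and 1.08 in Tfh against Th1 cells (adjusted exact p = 0.0179 for each). The adjusted call of the ratio was lost in Tfh against Th17 cells without Tfh replicates 2, 3, 4 or 5 or Th17 replicates 1, 2 or 3 (0.0519 to 0.0621), and in Tfh against Th1 cells without Tfh replicates 2, 4 or 5 (0.0519 to 0.0571).

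**Figure D4:**
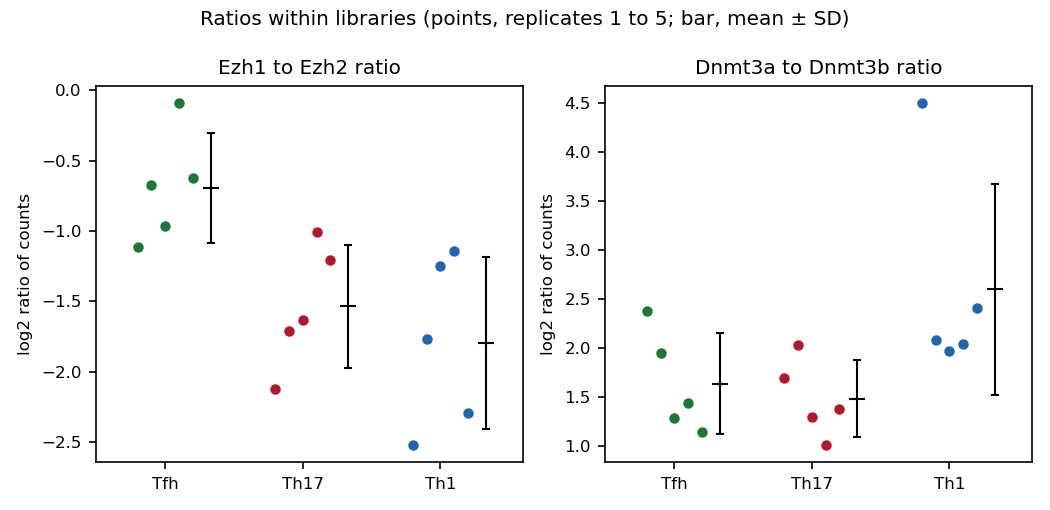
Log2 ratio of counts within each library (y axis) for Ezh1 to Ezh2 and for Dnmt3a to Dnmt3b, with replicates 1 to 5 left to right as points and the mean ± SD of 5 libraries as a bar. The Tfh points of the Ezh1 to Ezh2 ratio (-1.12 to -0.09) lie above all Th1 points, and Th1 replicate 1 stands apart at 4.50 in the Dnmt3a to Dnmt3b ratio.

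Of the other PRC2 subunits, 11 of 12 listed genes were tested. In Tfh against Th17 cells 2 were called higher and 1 lower, against 6.8% and 9.98% of all genes tested. In Tfh against Th1 cells 0 and 3 were (24.1% and 25.2% of all genes), and in Th17 against Th1 cells 1 and 1 (19% and 17.8%). Jarid2, which helps PRC2 find its targets, averaged 108 ± 4.46 CPM in Tfh cells, 74.2 ± 7.62 in Th17 cells and 266 ± 15.4 in Th1 cells. The libraries of the 3 conditions did not overlap. Jarid2 rose by 0.54 ± 0.11 on the log2 scale in Tfh against Th17 cells (edgeR adjusted p = 0.00157) and fell by 1.31 ± 0.11 in Tfh against Th1 cells (9.17e-09) and by 1.84 ± 0.11 in Th17 against Th1 cells (1.45e-10). Rbbp7, a histone-binding subunit, was lower in Tfh than in Th17 cells (-0.58 ± 0.13) and than in Th1 cells (-0.56 ± 0.13), and its close relative Rbbp4 was higher in Th17 than in Th1 cells (0.35 ± 0.10, edgeR adjusted p = 0.0113). Suz12, another core subunit, averaged 127 ± 27.7 CPM in Tfh cells, 172 ± 51.0 in Th17 cells and 179 ± 80.4 in Th1 cells and was called in no comparison. Chosen after their values were seen, the remaining called genes were the accessory subunits Phf1, higher in Tfh than in Th17 cells (0.94 ± 0.25), and Phf19, lower in Tfh than in Th1 cells (-1.50 ± 0.40), both with overlapping libraries.

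Kdm6a and Kdm6b, which remove the PRC2 mark, were called in no comparison. Kdm6a averaged 96.1 ± 26.6 CPM in Tfh cells, 74.9 ± 10.9 in Th17 cells and 72.4 ± 12.1 in Th1 cells, and Kdm6b 37.9 ± 7.95, 28.7 ± 13.9 and 25.1 ± 11.8 CPM in that order of conditions. Of PRC1, the Polycomb complex that binds the PRC2 mark and ubiquitinates histone H2A, 21 subunits were tested. Tfh against Th17 cells had 0 called higher and 1 lower, against 6.8% and 9.98% of all genes tested. Tfh against Th1 cells had 5 higher and 4 lower, against 24.1% and 25.2% of all genes. Th17 against Th1 cells had 3 higher and 4 lower, against 19% and 17.8% of all genes. Pcgf5, of a variant PRC1, averaged 45.4 ± 5.01 CPM in Tfh cells, 61.5 ± 8.92 in Th17 cells and 245 ± 39.7 in Th1 cells. It was lower in Tfh than in Th17 cells (-0.44 ± 0.14, edgeR adjusted p = 0.0384), in Tfh than in Th1 cells (-2.43 ± 0.15, 1.02e-10) and in Th17 than in Th1 cells (-1.996 ± 0.14, 2.18e-09). Pcgf1 was lower in Tfh than in Th1 cells (-1.40 ± 0.21) and in Th17 than in Th1 cells (-1.31 ± 0.20). Its partner Bcor was higher in both (0.75 ± 0.12 and 0.45 ± 0.12). Rybp, of variant PRC1, was also higher in Tfh than in Th1 cells (1.61 ± 0.24) and in Th17 than in Th1 cells (1.29 ± 0.24). It was not called in Tfh against Th17 cells (0.32 ± 0.23).

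Of 11 cofactors of DNA methylation 9 were tested. Tfh against Th17 cells had 0 called higher and 4 lower, against 6.8% and 9.98% of all genes tested. Tfh against Th1 cells had 1 higher and 4 lower, against 24.1% and 25.2% of all genes. Th17 against Th1 cells had 2 higher and 1 lower, against 19% and 17.8% of all genes. Hells, a remodeller that opens chromatin to Dnmt1, averaged 32.2 ± 7.87 CPM in Tfh cells, 71.4 ± 32.04 in Th17 cells and 79.5 ± 46.2 in Th1 cells. It fell by 1.15 ± 0.36 on the log2 scale in Tfh against Th17 cells (edgeR adjusted p = 0.0364) and by 1.30 ± 0.36 in Tfh against Th1 cells (0.00644), with overlapping libraries. Cdca7, its activator, was lower in the same comparisons (-0.76 ± 0.15 and -0.63 ± 0.15) with no overlap. The next 3 genes were named after their values were seen. Cdca7l was lower in Tfh than in Th17 cells (-0.52 ± 0.16) and than in Th1 cells (-0.40 ± 0.16). Mat2a, which makes the methyl donor, was higher in Th17 than in Th1 cells (0.355 ± 0.13). It was lower in Tfh than in Th17 cells (-0.44 ± 0.13) and not called in Tfh against Th1 cells (-0.08 ± 0.13). Trdmt1, which mainly methylates transfer RNA, was higher in Tfh than in Th1 cells (0.75 ± 0.26) and in Th17 than in Th1 cells (1.16 ± 0.26). Ahcy, which clears the by-product of methyl transfer, was lower in Tfh than in Th1 cells (-1.58 ± 0.23) and in Th17 than in Th1 cells (-1.40 ± 0.23). Usp7, which stabilises Uhrf1 and Dnmt1, averaged 204 ± 31.5 CPM in Tfh cells, 215 ± 23.1 in Th17 cells and 186 ± 35.7 in Th1 cells and was not called. Dnmt3l, the germline partner of Dnmt3a, had a count of 0 in all 15 libraries.

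All 8 readers of methylated CpG were tested. Between Tfh and Th17 cells 1 was called higher in Tfh and 0 lower, against 6.8% and 9.98% of all genes tested. The other comparisons had 3 higher and 2 lower each. The shares of all genes were 24.1% and 25.2% in Tfh against Th1, and 19% and 17.8% in Th17 against Th1 cells. Zbtb4 averaged 68.6 ± 9.08 CPM in Tfh cells, 39.8 ± 5.05 in Th17 cells and 28.7 ± 5.38 in Th1 cells, and passed in all 3 comparisons (0.79 ± 0.16, 1.25 ± 0.16 and 0.47 ± 0.16 on the log2 scale). Its relative Zbtb38 was lower in Tfh than in Th1 cells (-1.45 ± 0.26) and in Th17 than in Th1 cells (-1.61 ± 0.26). Mbd1 was higher in the same comparisons (0.77 ± 0.15 and 0.70 ± 0.15). Named after their values were seen, Mbd4 was lower (-0.72 ± 0.22) and Zbtb33 higher (0.61 ± 0.24) in Tfh than in Th1 cells, and Mbd2 was higher in Th17 than in Th1 cells (0.76 ± 0.21).

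Of 10 partners of demethylation 9 were tested. Tfh against Th17 cells had 1 called higher and 1 lower, against 6.8% and 9.98% of all genes tested. The comparisons against Th1 cells had 1 higher and 3 lower each. The shares of all genes were 24.1% and 25.2% for Tfh cells there, and 19% and 17.8% for Th17 cells. Gadd45g, a stress-induced gene of a family linked to active demethylation, averaged 5.13 ± 2.84 CPM in Tfh cells, 7.98 ± 2.25 in Th17 cells and 65.8 ± 10.7 in Th1 cells. It fell by 3.69 ± 0.34 on the log2 scale in Tfh against Th1 cells (edgeR adjusted p = 4.96e-08) and gave -3.03 ± 0.32 in Th17 against Th1 cells (5.39e-07). Gadd45a ran the other way, with 27.9 ± 4.91 CPM in Tfh cells, 16.9 ± 2.98 in Th17 cells and 9.26 ± 2.02 in Th1 cells, and passed in all 3 comparisons (0.72 ± 0.20, 1.59 ± 0.20 and 0.87 ± 0.20). Gadd45b was lower in Tfh than in Th17 cells (-0.76 ± 0.24) and than in Th1 cells (-1.18 ± 0.24). Idh2, which makes the co-substrate of the Tet enzymes, was lower in Th17 than in Th1 cells (-1.19 ± 0.17) and in Tfh than in Th1 cells (-1.09 ± 0.17), and Ogt, a partner of Tet proteins named after its values were seen, was lower in Th17 than in Th1 cells (-0.74 ± 0.20). Tdg, the glycosylase that excises the bases Tet enzymes make, averaged 7.33 ± 1.77 CPM in Tfh cells, 10.95 ± 2.29 in Th17 cells and 7.34 ± 0.87 in Th1 cells and was not called.

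**Figure D5:**
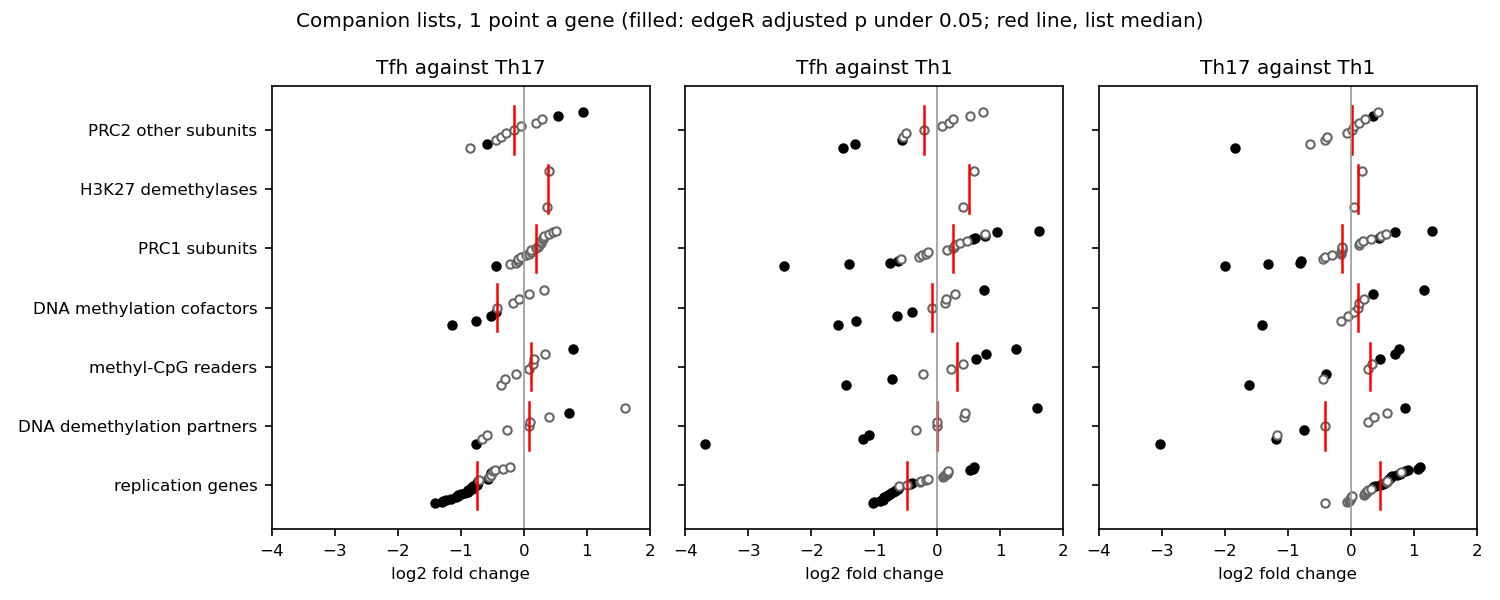
Log2 fold change of each tested gene (points; x axis) by list, in Tfh against Th17, Tfh against Th1 and Th17 against Th1 cells, first-named condition over the other; filled points had an edgeR adjusted p under 0.05 and red lines are list medians. The replication genes lie left of 0 in the first panel (27 of 33 filled) and mostly right of it in the third (16 of 33 filled). In the first panel 4 of the 9 DNA methylation cofactors are filled, all left of 0. The remaining lists hold filled points on both sides, few or none. Of all genes tested, 9.98% were called lower in the first comparison and 19% higher in the third.

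The genes most like the 3 members with the lowest p over all conditions were ranked by Pearson r of log2 CPM over the 15 libraries, as a description, since the libraries share their conditions and no p applies. Among the nearest to Tet2 were Igf2bp3 (r = 0.96; 7.68 CPM in Tfh cells, 5.71 in Th17 cells and 65.4 in Th1 cells), Dgkh, Rbm5 and Dennd4a (0.95 to 0.96). The nearest to Ezh1 were Ctsa (r = 0.97; 538 CPM in Tfh cells, 263 in Th17 cells and 122 in Th1 cells), Plekhg2, Tcf7, Ubash3b and Btg2, of which Tcf7, a transcription factor of naive and Tfh cells, had 1840.0 CPM in Tfh cells, 680.0 in Th17 cells and 203 in Th1 cells. The nearest to Dnmt1 were Rcc1 (r = 0.97; 27.8 CPM in Tfh cells, 59.3 in Th17 cells and 56.2 in Th1 cells), Rfc3, Sema7a, Tagln2 and Eif5a (0.95 to 0.96). Among the 10 genes, Ezh1 and Eed ran opposite ways (r = -0.92).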

How the data were processed

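Raw read counts per gene were deposited by the authors for 15 libraries, and the single-sample files equalled the series table in all 15. Reads were aligned with STAR 2.7.2b to mm10 and counted with featureCounts 1.6.4, per the submitters' processing notes; no source used here gives the annotation, strand setting or treatment of multi-mapping reads, so overlapping or near-identical genes are uncertain. Symbols came from RefSeq (25275 of 27179 IDs, 98.2% of counts).

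Genes were fitted in R 4.3.3 with edgeR 4.0.16 (default filter on low counts, TMM, 1 model over all 15 libraries, robust quasi-likelihood test, Benjamini-Hochberg over 12591 genes, threshold 0.05); the fit was tested on simulated data. No replicate pair agreed within counting noise (lowest chi-square per gene 9.80). Ratios used a pseudocount of 0.5 counts. DESeq2 1.42.0 and limma 3.58.1 served as alternatives.

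The members and lists were chosen with earlier results of these data known. Named from each list were up to 2 genes per direction and comparison with the largest fold change, called, without overlap and at 10 CPM or more, plus 11 genes named always, among them Suz12, Jarid2, Kdm6a and Hells. Some genes that these rules name are not reported here.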

Additional observations from a re-analysis of the deposited data

Results flagged for a closer look

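Groups of 5 libraries were searched for a library far from the others, which chance gives in about 1 of 20 groups. Uhrf1 in Th17 replicate 2 was at 67.6 CPM, where the other 4 Th17 libraries lay between 88.7 and 97.0 CPM, and it was still above the highest Tfh library. The log2 ratio of Dnmt3a to Dnmt3b in Th1 replicate 1 was 4.50, where the other 4 Th1 libraries lay between 1.97 and 2.40. Dnmt3b was at 2.80 CPM in that library and at 9.88 to 13.8 CPM in the others. The cause of either was not tested.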

How the results depend on the processing

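In Tfh against Th17 cells, 3 of the 10 genes were called, and 5 with DESeq2, 5 with the replicate block, 5 with a correction for GC content and 7 with GC correction and block. GC correction called 3401 genes there and 3981 with the block, where 2113 were called without, and moved the share called higher in Tfh to 50.5%, against 40.5%. Leaving out single libraries gave 1613 to 2393 genes called in Tfh against Th17, 5727 to 6344 in Tfh against Th1 and 4096 to 5055 in Th17 against Th1 cells, and 2 to 4, 6 to 7 and 5 to 6 of the 10 genes. The log2 Ezh1 to Ezh2 ratio then differed by 0.69 to 0.98, 0.92 to 1.27 and 0.08 to 0.42 in these comparisons, and the Dnmt3a to Dnmt3b ratio by -0.027 to 0.296 (negative without Tfh replicate 1), -1.15 to -0.49 and -1.28 to -0.65. Same-numbered libraries correlated at -0.10 to 0.57, and not each best with its own number, so numbers were not taken to pair them. The block called 2941, 6923 and 5487 genes and, for the ratios, with its sign-flip test (smallest p 0.0625) left the ratio differences at 0.84 and 1.104 for Ezh1 to Ezh2 and -1.12 for Dnmt3a to Dnmt3b in Th17 against Th1 cells, none passing (adjusted p = 0.0833 for each). With the block Ezh2 was called in Tfh against Th17 (-0.35, edgeR adjusted p = 0.0303) and in Th17 against Th1 cells (0.33, 0.0221). With GC correction and block, Dnmt3a (-0.42, 0.00855) and Tet3 (-0.40, 0.0107) were called in Th17 against Th1 cells. With the GC trend subtracted, the Dnmt3a to Dnmt3b ratio differed by -1.12 in Th17 against Th1 cells and was not called (adjusted exact p = 0.0519). Signs changed, all short of the threshold, for Ezh2 in Tfh against Th1 cells (0.033 by library size only, 0.003 with GC correction, -0.16 to 0.10 leaving out libraries), Tet1 in Tfh against Th17 (-0.755 to 0.066), Dnmt1 in Th17 against Th1 (-0.143 to 0.027), and the ratios to the replication list of Tet1 (0.053 with a pseudocount of 1, -0.59 to 0.82) and Dnmt1 (-0.092 with the shortened list, -0.043 to 0.117) in Tfh against Th17 and of Dnmt3b (-0.18 to 0.43) in Th17 against Th1 cells. Calls of Dnmt1 and Uhrf1 in both Tfh comparisons, of Tet1, Tet2 and Ezh1 in both comparisons against Th1, and of Eed in Tfh against Th1 cells held in every setting run; Tet1 has no value under the strict filter. The cause of the other changes was not tested. At 4.87 M counts in the shallowest library, Tet1 is the gene most limited by depth.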

Other observations

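Genes that DNA methylation or PRC2 are known to silence were mostly below the filter on low counts, as were most genes in the count table (12591 of 27179 passed). Of 13 germline genes that need DNA methylation for silencing, 3 passed. Of these Brdt, a testis reader of acetylated histones, averaged 3.44 ± 1.07 CPM in Tfh cells, 3.18 ± 1.63 in Th17 cells and 10.2 ± 1.73 in Th1 cells, and was lower in Tfh than in Th1 cells (-1.58 ± 0.36 on the log2 scale, edgeR adjusted p = 0.00119) and in Th17 than in Th1 cells (-1.70 ± 0.36, 0.000923). Of 12 genes known as PRC2 targets in other cells, 3 passed. Among these, and named after their values were seen, Pax6, a transcription factor of eye and brain, averaged 7.24 ± 2.25 CPM in Tfh cells, 3.17 ± 1.30 in Th17 cells and 0.03 ± 0.04 in Th1 cells (edgeR adjusted p = 0.0418 in Tfh against Th17 and 1.25e-08 in Tfh against Th1 cells), and Cdkn1c, a cell cycle inhibitor, averaged 0.86 ± 0.69, 1.44 ± 0.81 and 0.14 ± 0.16 CPM in that order of conditions. DNA methylation and histone marks were not measured in these libraries.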
